A study of Caenorhabditis elegans with 6 samples.

Results

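The microRNA gene mir-77 of Caenorhabditis elegans was followed across 6 small RNA libraries of embryos, as 1 gene of the 260 microRNA genes and 32238 genes in the deposited tables. It was chosen by its sense counts in these same libraries, which earlier results had as higher in the double mutant. Its levels and fold changes between genotypes are therefore a description, and none of them is tested. The single mutant carried ced-3(n1286) and the double mutant carried dot-1.1(knu339) together with ced-3(n1286), each as 1 strain with 3 libraries that the labels call biological replicates. Both genotypes thus lack normal ced-3, the caspase gene of programmed cell death, and no embryos with intact ced-3 were compared. The gene dot-1.1 encodes the worm counterpart of DOT1L, which methylates histone H3 at lysine 79. Embryos were freed with hypochlorite from synchronised egg-laying adults kept at 20 °C, and their developmental ages are not stated in the labels.

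MicroRNAs are cut from hairpin transcripts by Drosha and Dicer, loaded into Argonaute proteins and guided by their seed to messenger RNAs, which are then repressed. In the worm some microRNAs, such as the mir-35 family, are abundant in embryos, while lin-4 and let-7 time the larval stages. A count here is the number of sense reads assigned to a gene, so the 2 arms of the mir-77 hairpin are not separated. The level of a microRNA is given as its sense counts per 1000000 sense microRNA counts of the library. Each library is thus scaled by its own microRNA total. Counts were not divided by gene length, because a microRNA read covers the whole mature RNA.

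The libraries held 19206363 to 26409182 sense counts and 4891289 to 6568937 antisense counts. MicroRNA genes took 72.9% to 92.4% of the sense counts, and the libraries richest in them were single mutant replicate 2 and double mutant replicate 3. The mir-35 family, the marker of embryos used here, made up 31.3% to 36.8% of microRNA counts. Sense counts at dot-1.1 were 55 to 75 in the single mutant and 23 to 40 in the double mutant, which is no measure of its messenger RNA. Counts at ced-3 were 1 to 5 in all 6 libraries. The bracketed names in the titles of replicates 2 and 3 differ from the column names, so these 2 may be exchanged within a genotype.

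In 2 of the 3 double mutant libraries mir-77 stood far above the single mutant, and in the third it did not. Sense counts were 41, 42 and 86 in replicates 1 to 3 of the single mutant, against 61, 466 and 818 in those of the double mutant. As levels, the single mutant libraries had 2.75 (95% interval 1.97 to 3.72), 2.03 (1.47 to 2.75) and 4.72 (3.78 to 5.83). The double mutant libraries had 4.26 (3.26 to 5.47), 30.2 (27.5 to 33.1) and 34.6 (32.3 to 37.1). Intervals are exact Clopper-Pearson ones and cover counting error only. Replicate 1 of the double mutant thus lay within the single mutant's range, and its interval overlapped that of replicate 3 of the single mutant. The genotypes overlapped, and the description of mir-77 as higher in the double mutant holds for its replicates 2 and 3 alone. Whether more cells held mir-77 or cells held more of it cannot be told apart in bulk embryos.

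**Figure D1:**
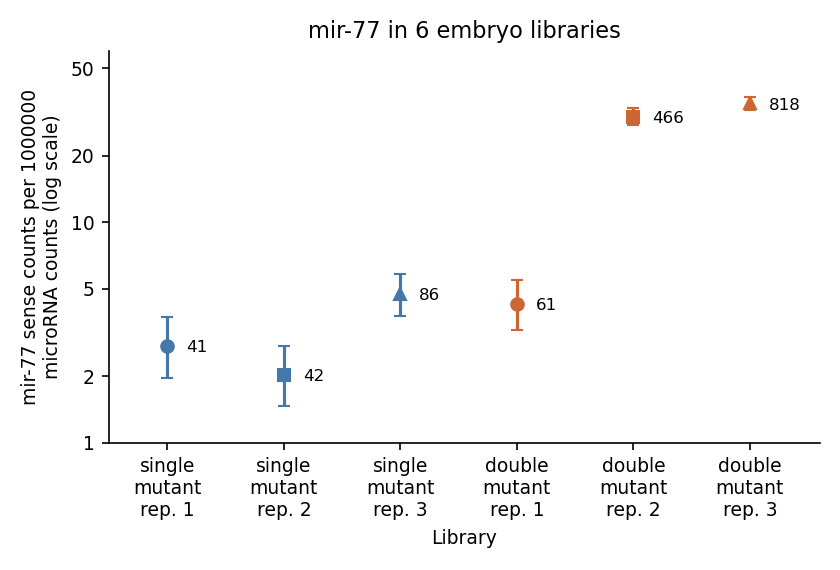
Level of mir-77 in each library, as sense counts per 1000000 microRNA counts on a log scale, with exact 95% counting intervals as bars and the raw count beside each point. Replicates 2 and 3 of the double mutant sit at 30.2 and 34.6, while its replicate 1, at 4.26, lies among the single mutant libraries at 2.03 to 4.72.

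The mean level of mir-77 was 3.17 ± 1.39 in single mutant libraries, against 23.0 ± 16.4 in double mutant libraries (SD, n = 3). On the log2 scale, after adding 0.5 counts, the mean difference was 2.46 ± 1.03 (SE), or 5.49-fold between geometric means. The ratio of the arithmetic means was 7.27. Without replicate 1 of the double mutant the difference of log2 means was 3.43, or 10.8-fold. Without the pair of microRNA-rich libraries it was 1.65, or 3.14-fold. In the double mutant the SD of the log2 level was 1.69, rank 2 from the top among 134 microRNA genes with a mean of at least 100 sense counts, whose median SD was 0.37. Replicates 2 and 3 of the double mutant, which set this SD, also brought mir-77 over that minimum, so its rank is a description. In the single mutant it was 0.61, rank 15, beside a median of 0.30.

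By level, mir-77 was a minor microRNA of these embryos. Among the 260 microRNA genes it ranked 143, 153 and 135 in the single mutant libraries and 135, 98 and 95 in those of the double mutant. Averaged over the 6 libraries it ranked 109, or 114 when counts were divided by the gene length given with them. That length is not always that of a hairpin, being 1732 bases for let-7.

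With edgeR, fitted on all sense genes and scaled by TMM, the log2 fold change of mir-77 was 3.36 ± 1.01 (SE), with 2.64 ± 1.35 and 27.1 ± 28.4 counts per 1000000 of the scaled library size in the single and double mutant (SD, n = 3). The log2 fold change was 2.14 without replicate 3 of the double mutant, 2.47 without both microRNA-rich libraries and 2.65 with the replicate number as a block. Over all genes, 0 of the 7680 in the sense fit (0%) passed an edgeR adjusted p of 0.05, and since mir-77 was chosen on these counts nothing is read from whether it passed. At an unadjusted p under 0.05 edgeR had 440 genes higher and 184 lower. These counts were 420 and 215 with RLE in place of TMM. They were 35 and 67 with library totals, and 37 and 23 with microRNA counts as library size. DESeq2 on the same genes called 0 and 0 after adjustment. All p-values here rest on the spread among 6 libraries of 1 strain per genotype.

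The microRNAs nearest to mir-77 in abundance had differences of mean log2 level from -0.40 to 0.80, against 2.46 for mir-77. These were the 20 genes with the 10 ranks above and the 10 ranks below it by the mean over 6 libraries, with mean levels of 9.65 to 27.5. In the 4 libraries where mir-77 was low its level, 2.03 to 4.72, lay below these means. A second list, added after seeing the data, held the 20 genes nearest to mir-77 by the single mutant mean alone (2.28 to 4.94). Its differences ran from -0.45 to 2.11 with a median of 0.14, and 2 were above 1, the larger that of mir-237. Of these 20 genes, 18 had a mean count under the minimum that the 134 ranked genes had to reach. Among those 134 genes 4 (2.99%) had a difference above 1, but that set leaves out nearly all of this list. No share above 1 is given for all microRNA genes of such low counts. Among double mutant libraries the SD of the log2 level was at most 1.28 in this second list, against 1.69 for mir-77. In the 20 genes nearest by the 6-library mean it was at most 1.15. The difference of mean log2 level was above 0 for 15 of the 20 by the 6-library mean, with a median of 0.14. Over all microRNA genes of sufficient count it was above 0 for 80 of 134, with a median of 0.09. The median of the 20 became -0.04 without replicate 1 of the single mutant. Directly above mir-77 in rank, mir-2209.1 had levels of 13.4 ± 2.93 in single and 13.8 ± 1.41 in double mutant libraries (SD, n = 3). Next above, mir-247 had 15.2 ± 2.66 and 13.2 ± 5.80, and mir-792 had 17.4 ± 5.39 and 15.6 ± 5.55 (n = 3). In these 3 genes the genotypes overlapped. Directly below, mir-5551 had 12.5 ± 4.64 and 12.7 ± 5.24 (n = 3), again overlapping. The next gene down, mir-124, a microRNA of sensory neurons, had 8.80 ± 2.65 and 15.3 ± 4.22 (n = 3) and the largest difference of the 20, at 0.80 ± 0.33 (SE). Below it, mir-75 had 9.94 ± 1.94 and 13.2 ± 2.41 (n = 3). The lowest difference of the 20 was that of mir-800, at -0.40 ± 0.31 (SE).

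**Figure D2:**
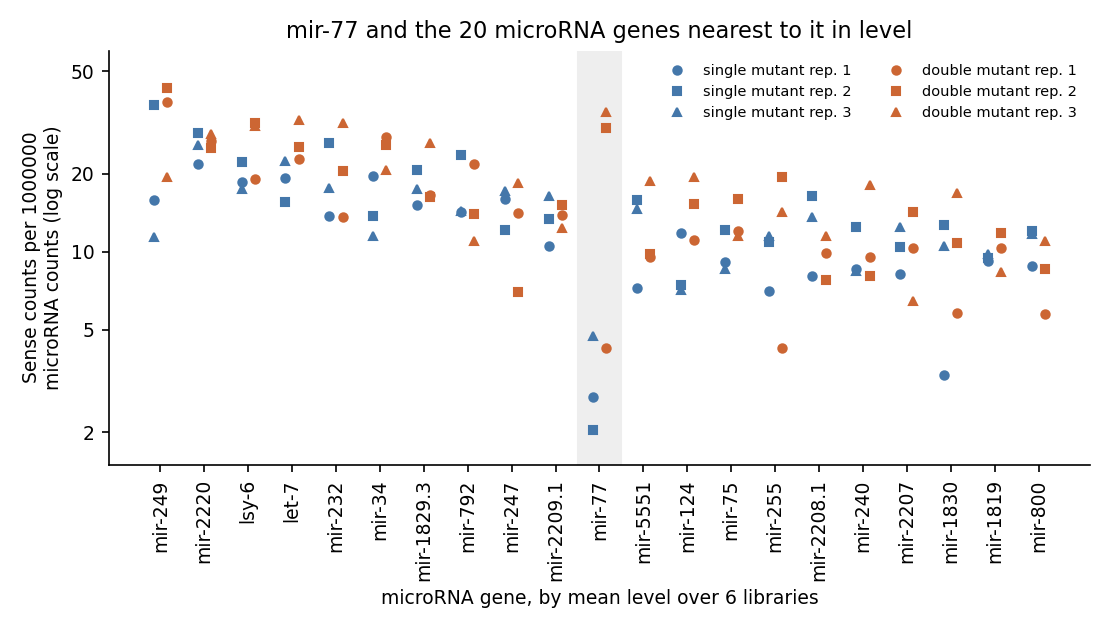
Levels of mir-77 (shaded) and of the 20 microRNA genes nearest to it in mean level, in sense counts per 1000000 microRNA counts on a log scale, with 1 point per library. For mir-77 2 double mutant points lie above 30 and the other 4 points below 5, while the other genes' differences between genotypes run from -0.40 to 0.80 on the log2 scale.

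Ranked by the difference of mean log2 level, mir-77 stood first of the 134 genes. That place depends on the minimum of 100 counts, since lin-4, which lay under it, had 2.457 against 2.456. In the edgeR fit, with 177 microRNA genes tested, the largest log2 fold change was 3.72, against 3.36 for mir-77. Since mir-77 had been chosen for its difference, its rank supports nothing. By the difference of mean log2 level it ranked 2, behind mir-239.1, in 3 settings. These were without replicate 2 of the single mutant, without replicate 3 of the double mutant, and without both microRNA-rich libraries. A difference above 1 was found for 4 of the 134 genes (2.99%), which were mir-77, mir-237, mir-239.1 and mir-246, and for 0 of the 20 genes nearest by the 6-library mean. Both mir-77 and mir-237 reached the minimum of 100 counts through the double mutant. With the minimum set on the single mutant alone, 2 of 129 genes (1.55%) had a difference above 1. In 13 of the 134 (9.70%) all double mutant libraries lay above all single mutant libraries, and mir-77 was not among them. In 1 of the 134 (0.746%) they lay below. Of the 20 genes of like abundance, let-7 and mir-34 did not overlap and were higher, a share near that over all 134.

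**Figure D3:**
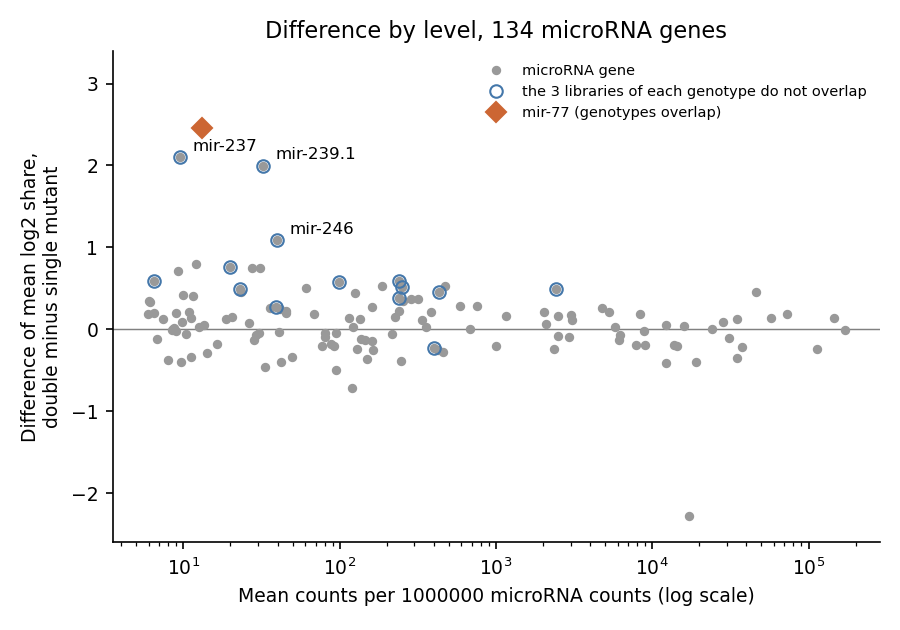
Difference of mean log2 share between double and single mutant against mean level, for the 134 microRNA genes with a mean of at least 100 sense counts (level on a log axis). The diamond marks mir-77 at 2.46, and open circles mark the 14 genes whose genotypes do not overlap, 13 higher and 1 lower.

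The microRNAs whose levels ran most closely with mir-77 were found from the SD of their log2 ratio to it over the 6 libraries, a measure without any scaling. The points share their libraries and the double mutant levels that led to the choice of mir-77, so the likeness is a description. Closest of 133 genes was mir-237, a microRNA of the lin-4 family, with an SD of 0.61 beside a median of 1.73. Its counts were 26, 60 and 100 in single mutant libraries, against 82, 239 and 604 in double mutant libraries. The ratio of mir-237 to mir-77 was 0.634, 1.43 and 1.16 in the former, against 1.34, 0.513 and 0.738 in the latter, and so stayed between 0.513 and 1.43 while mir-77 itself ranged from 2.03 to 34.6. The levels of mir-237 did not overlap between genotypes, with 5.72 in replicate 1 of the double mutant and at most 5.49 in any single mutant library.

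Next in likeness among the 133 genes came mir-239.1, mir-246, mir-353 and mir-124, with SDs of 1.16, 1.20, 1.31 and 1.33. Levels of mir-239.1 were 10.8, 18.5 and 9.28 in single mutant libraries, against 36.7, 76.5 and 42.3 in double mutant libraries. Replicate 1 of the double mutant was high for mir-239.1 and low for mir-77. Levels of mir-246 were 22.0, 30.3 and 22.4 against 36.3, 64.0 and 61.4, without overlap. For mir-353 they were 8.24, 5.47 and 6.92 against 8.10, 14.0 and 12.3, where replicate 1 of the double mutant again lay within the single mutant's range, as it did for mir-77.

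The larval timing microRNAs lin-4 and let-7 were, like mir-77, highest in replicates 2 and 3 of the double mutant. Counts of lin-4 were 19, 8 and 24 in single mutant libraries, against 35, 84 and 208 in double mutant libraries. As levels these were 1.27, 0.388 and 1.32 against 2.44, 5.44 and 8.80. Its difference of mean log2 level, 2.46 ± 0.78 (SE), stood beside 2.46 ± 1.03 for mir-77, and its log2 ratio to mir-77 had an SD of 0.67 over the 6 libraries. With a mean of 63.0 counts lin-4 lay under the minimum of 100 and was not ranked among the 134 or for likeness. Its SD of 0.67 lay between those of mir-237 (0.61) and mir-239.1 (1.16). Levels of let-7 were 19.3, 15.5 and 22.4 in single mutant libraries, against 22.8, 25.3 and 32.2 in double mutant libraries, a difference of 0.49 ± 0.21 (SE). The gene length given for let-7 is 1732 bases, against 100 for mir-77, so its counts need not all be of the mature microRNA. Neither lin-4 nor let-7 overlapped between genotypes. For both, replicate 1 of the double mutant was the lowest of its genotype, as it was for mir-77. The part of embryo age in the level of mir-77 was not tested.

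**Figure D4:**
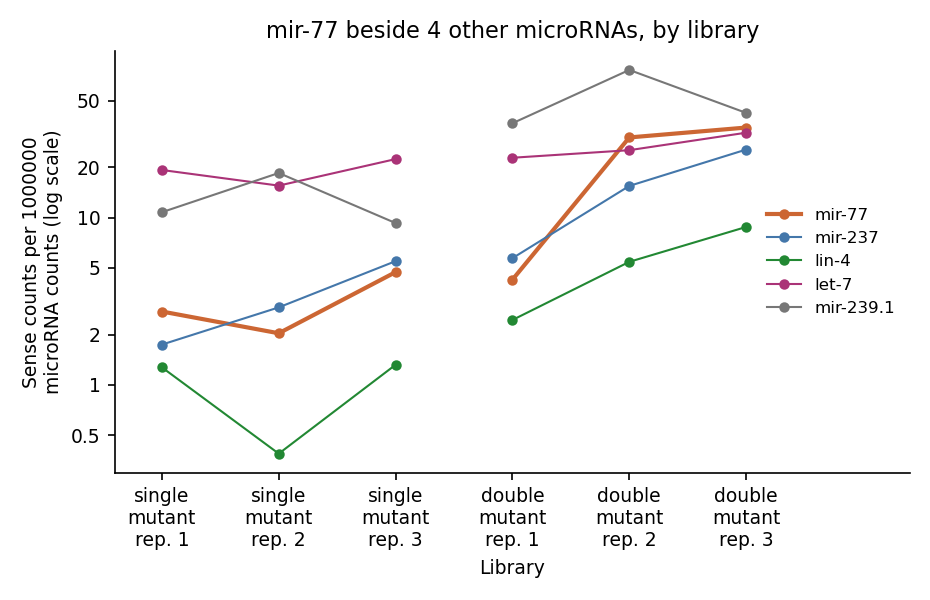
Levels of mir-77, mir-237, lin-4, let-7 and mir-239.1 in each library, in sense counts per 1000000 microRNA counts on a log scale. Lines only join the points of 1 gene within a genotype. In replicate 1 of the double mutant mir-77 is at 4.26, lin-4 at 2.44 and mir-237 at 5.72, and in its replicate 3 they are at 34.6, 8.80 and 25.6.

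The mir-77 gene lies on the forward strand of chromosome II, from 12519268 to 12519367 in WBcel235, and its 100 bases equal the length in the deposited tables. No annotated gene overlaps it on either strand, so it is intergenic, and its reads have no host gene. The small nucleolar RNA gene T21B4.20 ends 50 bases before it and had 0 counts on both strands in all 6 libraries. The chemoreceptor gene srh-70, on the reverse strand, lies 408 bases before mir-77 and had 13 sense counts over the 6 libraries. On the other side ceh-99, a homeobox gene on the same strand, begins after a gap of 613 bases. Its sense counts were 6, 4 and 5 in single mutant libraries, against 9, 8 and 4 in double mutant libraries. The libraries with the most mir-77 did not stand apart there, but counts this low could hardly show it. They are also no measure of the messenger RNA of ceh-99. The nearest microRNA genes were distant. They were mir-267, after a gap of 118766 bases with 0 counts, and mir-4806, 172886 bases before mir-77, with 148, 196 and 116 counts against 140, 126 and 181, which overlapped.

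Antisense counts of mir-77 were 0 in 5 libraries and 1 in replicate 2 of the double mutant. A count of 0 allows up to 0.457 to 0.613 per 1000000 antisense counts, depending on the library. Against 1514 sense counts this was 0.0660% of both strands together (exact 95% interval 0.00167% to 0.367%). The 20 genes of like abundance together had 88 antisense and 34037 sense counts, with none antisense in 7 of them. The most, 40, were at let-7, whose given gene length is 1732 bases. Antisense counts of mir-77 did not pass the filter on low counts, and of the 7297 antisense genes tested 0% passed with edgeR. Before adjustment 212 genes were higher and 170 lower at an edgeR p under 0.05, and 207 and 173 with RLE in place of TMM. With library totals they were 61 and 75, and with sense microRNA counts as library size 51 and 34. DESeq2 called 1 higher and 7 lower after adjustment.

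Small RNA counts at 20 genes of microRNA production and action (among them drsh-1 and pash-1 of the nuclear cleavage complex, dcr-1 for Dicer, the Argonaute genes alg-1 and alg-2 and their partners ain-1 and ain-2) were read in both tables. Of their sense counts, 19 were tested and 0 passed with edgeR, against 0% of all genes. Their log2 fold changes lay above 0 in 6 and below 0 in 13, beside 3909 and 3771 over all genes tested. The median was -0.12 beside 0.01 over all genes. Of their antisense counts, 17 were tested and 0 passed. Above 0 lay 9 and below 0 lay 8, beside 3790 and 3507 over all genes tested, and the median was 0.06 beside 0.03. These counts are of small RNAs from or against the genes, and they do not measure how much of each protein was made.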

How the data were processed

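The authors deposited 2 tables of raw counts, whole-number read counts per gene with 1 column per library and a gene length, with 32238 genes in each. One is named antisense, and the other was read as sense. The build was WBcel235 per the submitters' processing notes, inserts were 18 to 40 bases and reads 50 bases per the labels' protocols, while aligner, counter and handling of reads with several matches are not given in the sources. RefSeq gene classes of WBcel235 matched 31418 genes and gave 260 microRNA genes, and positions came from the Ensembl annotation of that build. No per-library column was left unused.

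Levels were computed as counts per 1000000 sense microRNA counts. Each table was fitted with edgeR 4.0.16 in R 4.3.3 (filter on low counts, TMM, robust quasi-likelihood test, Benjamini-Hochberg adjusted p under 0.05), with DESeq2 1.42.0 as an alternative, and the procedure was tested on simulated data. Standard errors were obtained from the fold change and its F statistic. Those of differences of mean log2 level came from the SDs of both genotypes. Genes were named by rule: the mutated genes, rank and genome neighbours of mir-77, the largest and smallest difference among the 20 genes of like abundance, and the 5 genes most alike, with lin-4 and let-7 as stage markers. The member, lists and rules were chosen with earlier results of these data known.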

Additional observations from a re-analysis of the deposited data

How the results depend on the processing

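The difference of mir-77 kept its direction under all 11 alternatives to its share and all 13 to its edgeR fit. For the share, a replicate block cannot change the difference when groups are equal in size (2.46), so that alternative shows nothing. Since mir-77 was chosen on this direction in the same libraries, the tally is a description. Leaving out 1 library gave differences of log2 share of 1.92 to 3.43 and log2 fold changes of 2.14 to 3.87. Both denominators without the most abundant microRNAs or mir-1 (2.50 and 2.48) and all sense counts (2.37) left the share difference near 2.46. The fold change was 2.83 with library totals and 2.86 with microRNA counts as library size, settings that moved the median of all genes by -0.28 and -0.19. Relative to that median it was 3.10 and 3.04, against 3.35 with TMM. It was 2.47 without both microRNA-rich libraries. With a replicate block it was 2.65, and deviations of samples with the same number had correlations across 7718 genes of 0.63, 0.01 and -0.12 for numbers 1, 2 and 3. Not every pair exceeded 0.1, so the numbers were not taken to pair the samples. Replicate 2 of the single and 3 of the double mutant stood at 0.51, and 3 of the single and 2 of the double mutant at 0.06. The block left the counts of genes called at 0.

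The median of the 20 genes of like abundance ran from -0.043, without replicate 1 of the single mutant, to 0.278 with 1 library left out. The count of sense genes called was 102 higher and 15 lower with every gene of at least 1 count (mir-77 is among the 102, with nothing read from it, since it was chosen on these counts), and 148 and 13 without both microRNA-rich libraries, a setting chosen after seeing the data. With 1 library left out it was 0 to 6 higher and 0 lower, the 6 without replicate 3 of the double mutant. Antisense calls were 89 higher and 25 lower with every gene, 1 and 7 with DESeq2, and 0 with any 1 library left out. The causes of these changes were not tested. Depth limits the single mutant values of mir-77, which rest on 41 to 86 counts, and gives no antisense value.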
